A study of Saccharomyces cerevisiae with 83 samples.

Results

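Footprints of ribosomes pulled down with N-terminally FLAG-tagged Upf1 were compared with footprints of all ribosomes of the same lysates, to show on which mRNAs Upf1-bound ribosomes were relatively frequent or rare. The comparison used 8 of the 83 libraries of the series, chosen by label: the immunopurified (IP) and the total ribosomes of 4 FLAG-Upf1 lysates, with footprints of 27 to 32 nt. The cells were budding yeast (Saccharomyces cerevisiae, W303 background, strain HFY871) in which UPF1 was replaced by HIS3 (upf1::HIS3) and FLAG-Upf1 was supplied from the plasmid pG1-FLAG-UPF1. For 2 of the 4 lysates, cycloheximide (CHX) was given at 100 µg/ml in the medium immediately before harvest by filtration and again at lysis. The other 2 received none (NoCHX). The RNase I-digested ribosomes of a lysate were collected through a sucrose cushion, and a part went on to anti-FLAG affinity gel. Ribosomal RNA was removed from all 8 libraries with Ribo-Zero Gold. A pull-down from cells without a FLAG tag was not analysed here, so binding to the gel itself and binding through the tagged protein cannot be told apart.

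Upf1 is an ATP-dependent RNA helicase and the central factor of nonsense-mediated decay (NMD), which removes mRNAs whose translation stops at a premature termination codon. Upf2 (encoded by NMD2) and Upf3 are its partners, and Upf1 also contacts the release factors eRF1 and eRF3 (Sup35) at a stalled termination event. A footprint is the stretch of mRNA that a ribosome shields from nuclease, so the share of footprints on an mRNA in the IP, set against the same share in the total ribosomes, says whether tagged-protein-bound ribosomes were over- or under-represented there. All values are relative within a library, and a lower share of some mRNAs makes the share of others higher.

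The deposited expected counts summed to 305355 and 240173 in the IP of CHX replicates 1 and 2 and to 68488 and 17924 in the IP of NoCHX replicates 1 and 2. They summed to 153227, 239652, 61194 and 24713 in the total ribosomes of the same lysates. A floor of 3 counts stood for 9.82 CPM (counts scaled to a common library size) in the deepest IP library and for 167 CPM in the IP of NoCHX replicate 2, so low mRNAs could not be followed in that lysate. Across the 2174 transcripts tested, log2 CPM of replicates had a Pearson r of 0.94 for CHX IP, 0.90 for CHX total, 0.65 for NoCHX IP and 0.69 for NoCHX total. In RNA-seq of whole lysates, UPF1 (YMR080C) was at 30900 ± 1650 CPM in FLAG-Upf1 cells and at 337 ± 31.2 CPM in wild-type cells with an empty plasmid (SD, n = 4 each, both treatments together), 91.5-fold higher with the plasmid. HIS3 RNA averaged 95.8 CPM in FLAG-Upf1 cells and 22.1 CPM in wild type. TRP1 RNA averaged 190 CPM in FLAG-Upf1 cells and 9230 CPM in wild type, and the cause of this difference was not tested. In each of the 53 ribosome libraries of the series the 3 UPF genes (UPF1, NMD2, UPF3) held 0 counts, so their own footprints could not be compared.

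Ribosomes bound by FLAG-Upf1 carried relatively few footprints on mRNAs of ribosomal proteins and of other small, abundant proteins, and relatively many on a short series of mostly longer mRNAs. In edgeR's quasi-likelihood test with the lysate as a block, 168 of 2174 transcripts differed between IP and total ribosomes at an adjusted p-value under 0.05, which is 7.73% of those tested. Of these, 27 (1.24%) were higher in the IP and 141 (6.49%) were lower. The median log2 fold change of all 2174 was -0.04. Ribosomal protein mRNAs made up 79 of the 141 lower transcripts and 0 of the 27 higher ones. The IP libraries were all above the total libraries in CPM for 20 of the 27 higher transcripts, and all below them for 100 of the 141 lower ones, against 4.55% and 8.10% of all transcripts tested. A choice made on the same 8 libraries favours such an excess, so it adds no separate evidence. The counts rested on few lysates: 26 transcripts were called without CHX replicate 1, 50 without CHX replicate 2, 53 without NoCHX replicate 1 and 201 without NoCHX replicate 2. With a minimum count of 50 the number was 106 of 537, and with 20 to 32 nt footprints in NoCHX it was 271 of 3463.

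Cytosolic ribosomal proteins, the building blocks of the ribosome itself, are encoded by short and very abundant mRNAs. Their mRNAs together took 7.96% and 7.47% of the counts in the IP of CHX replicates 1 and 2 and 7.09% and 5.50% in the IP of NoCHX replicates 1 and 2. They took 15.6%, 16.3%, 13.5% and 13.4% in the total ribosomes of the same lysates. The IP share was lower in 4 of 4 lysates, with means of 7.0 ± 1.07% in the IP and 14.7 ± 1.44% in the total ribosomes (SD, n = 4 each), a gap wider than the spread within either kind. The 95% Wilson interval of each share was at most 0.40 percentage points to either side, for counting error only. Of 138 ribosomal protein transcripts listed, 136 passed the count filter, 79 were lower, 0 were higher, and the median log2 fold change was -1.52. In the large subunit 51 of 80 tested transcripts were lower (median -1.49), and in the small subunit 28 of 56 (median -1.59, or -1.31 without NoCHX replicate 2).

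**Figure D1:**
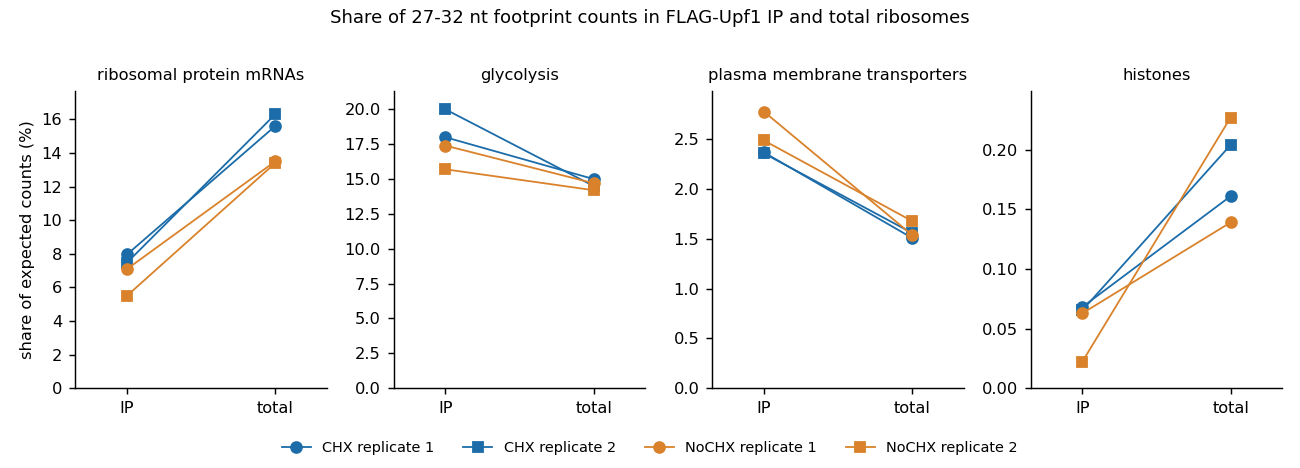
Share of the 27 to 32 nt expected counts (y axis, percent, from 0) that fell on 4 groups of mRNAs in the IP and in the total ribosomes of the 4 FLAG-Upf1 lysates; lines join the libraries of a lysate. Ribosomal protein mRNAs averaged 7.0% in the IP and 14.7% in the total ribosomes and histone mRNAs 0.0546% and 0.183%, whereas glycolytic mRNAs averaged 17.8% and 14.6% and plasma membrane transporter mRNAs 2.5% and 1.57%.

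Some ribosomal protein genes are single-copy. Among them RPL32 and RPS31 were lower in the IP of each lysate, and RPS2 and RPP0 in 3 of 4. RPL32 (YBL092W; RefSeq R64 chrII:45978-46370), a protein of the large subunit, was at 806, 583, 219 and 223 CPM in the IP of CHX replicates 1 and 2 and NoCHX replicates 1 and 2, against 2530, 3220, 1340 and 1620 CPM in the total ribosomes of those lysates; the same order of lysates is used throughout. The highest IP library lay below the lowest total library, and the log2 fold change was -2.35 (SE 0.33, adjusted p = 4.17e-10), which is 5.08-fold lower in the IP. RPS31, a fusion of ubiquitin with a small-subunit protein, was at 472, 329, 307 and 167 CPM in the IP and at 2000, 1930, 1040 and 1210 CPM in the total ribosomes (log2 fold change -2.28, SE 0.36, adjusted p = 5.71e-08). Several of its expected counts were fractional, such as 305.8 in the total ribosomes of CHX replicate 1. Some of its reads were therefore divided with other entries. RPS2, a larger protein of the small subunit, was at 2380, 3010, 2090 and 1120 CPM in the IP and at 3180, 2890, 2750 and 3360 CPM in the total ribosomes. Its libraries overlapped and its log2 fold change of -0.58 (SE 0.26) did not pass (adjusted p = 0.18). RPP0, the stalk protein, was likewise at 3900, 6350, 3310 and 4070 CPM in the IP, against 6630, 6340, 6010 and 6840 CPM in the total ribosomes; its log2 fold change was -0.65 (adjusted p = 0.051).

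Most ribosomal protein genes have a near-identical copy, and the authors' estimates can divide reads unevenly between the copies. RPL35A was listed at 0 in all 4 IP libraries and at 159, 966, 392 and 567 CPM in the total ribosomes, which is at least 8.92-fold lower against a floor of 3 counts per library, while its copy RPL35B had a log2 fold change of 0.80 that did not pass (adjusted p = 0.55). With the copies summed, RPL35 was at 409, 498, 350 and 0 CPM in the IP and at 1280, 1160, 392 and 567 CPM in the total ribosomes, a log2 fold change of -1.35 (SE 0.40, adjusted p = 0.014). Summed RPL40, the second ubiquitin fusion, was at 884, 433, 628 and 0 CPM in the IP and at 4590, 3720, 1400 and 2470 CPM in the total ribosomes (log2 fold change -2.62, SE 0.32). Summed RPL13 was at 776, 629, 234 and 837 CPM in the IP and at 2930, 3530, 1370 and 3930 CPM in the total ribosomes (log2 fold change -2.32, SE 0.29). Both pairs lay lower in the IP of every lysate. Among 80 ribosomal proteins counted this way, 58 were lower, 0 were higher, 78 had a negative fold change and the median was -1.50. Of the single entries, 7 of the 136 tested had a positive fold change, none of which passed, at an adjusted p of 0.51 or above. RPS0B, one of them, was at 3140, 2910, 2810 and 6030 CPM in the IP, against 2580, 2430, 2240 and 3490 CPM in the total ribosomes.

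The other 62 lower transcripts included 6 translation factors. HYP2, which encodes the elongation factor eIF5A, was at 1480, 1120, 966 and 1010 CPM in the IP and at 3010, 3780, 2480 and 3560 CPM in the total ribosomes. These values did not overlap, and the log2 fold change was -1.53 (SE 0.27, adjusted p = 2.06e-06). EFB1, the exchange factor of eEF1A, was lower as well (log2 fold change -0.95, adjusted p = 0.023), although in NoCHX replicate 2 it was higher in the IP, at 2010 CPM against 1780 CPM. These were the 2 lower members of 9 elongation factors tested, against 6.49% of all transcripts tested (0 higher, median -0.24, or 0.03 without NoCHX replicate 1). TEF1 and TEF2, which encode the same eEF1A protein, did not pass; TEF1 was listed at 0 in the IP of NoCHX replicate 2 where TEF2 stood at 23600 CPM, so their reads were not divided alike across libraries.

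Of 27 initiation factors tested, 4 were lower, 1 was higher and the median log2 fold change was -0.28 (-0.49 without CHX replicate 2 and -0.04 without NoCHX replicate 2). Among all transcripts tested, 6.49% were lower and 1.24% higher. FUN12 (eIF5B, which joins the subunits) was at 154, 104, 58.4 and 279 CPM in the IP and at 653, 522, 670 and 647 CPM in the total ribosomes (log2 fold change -2.32, SE 0.48, adjusted p = 7.08e-05). PAB1, the poly(A)-binding protein, was at 357, 271, 409 and 55.8 CPM in the IP and at 822, 805, 964 and 1620 CPM in the total ribosomes (log2 fold change -1.75, SE 0.40, adjusted p = 0.00041). DED1, a helicase that unwinds mRNA leaders, was at 527, 558, 628 and 614 CPM in the IP and at 1240, 1120, 1540 and 1700 CPM in the total ribosomes (log2 fold change -1.28, SE 0.34, adjusted p = 0.0037). Their effective lengths were 3125, 2067 and 2542 nt, and in each the IP libraries lay wholly below the total ones. TIF3 (eIF4B) was the remaining lower member, at -2.59 with an adjusted p of 0.035. The higher member was TIF2, one of a pair of genes for the helicase eIF4A, at 839, 1010, 719 and 2260 CPM in the IP and 165, 382, 970 and 0 CPM in the total ribosomes (log2 fold change 1.69, adjusted p = 0.010), and its copy TIF1 had 0.27 (adjusted p = 0.72). In NoCHX replicate 2 TIF1 stood at 920 CPM in the IP and at 2060 CPM in the total ribosomes, where TIF2 was at 0. The reads of the pair were thus not divided alike across libraries, and the summed pair was not tested.

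Some chaperone and histone mRNAs were also lower, against 6.49% of all transcripts tested. Of 16 cytosolic chaperones tested, 5 were lower and 0 higher (median -0.78). They were STI1, an Hsp70-Hsp90 adaptor (-1.82, adjusted p = 0.00042), EGD1, a subunit of the nascent polypeptide-associated complex (-1.92, adjusted p = 0.00082), the J proteins SIS1 (-1.52) and YDJ1 (-1.34), and the Hsp70 SSA2 (-0.83, adjusted p = 0.0100). SSB1, the Hsp70 that binds nascent chains, went the other way without passing, at 8340, 15400, 5150 and 3700 CPM in the IP and 7290, 7570, 3680 and 3690 CPM in the total ribosomes. Of 8 histone transcripts tested, 0 had a positive fold change and 2 passed, HHO1 (linker histone H1, -3.44, adjusted p = 0.020) and HHF2 (histone H4, -3.42, adjusted p = 0.0051). HHF2 was at 32.7, 25.6, 0 and 0 CPM in the IP and at 330, 199, 107 and 45.3 CPM in the total ribosomes, of which the last lay under the floor. Its expected counts were fractional, such as 50.59 in the total ribosomes of CHX replicate 1. Some of its reads were therefore divided with other entries, and no sum of histone entries was tested. Of 24 subunits of the respiratory chain and ATP synthase, ATP7 (-2.79, adjusted p = 0.0011) and QCR7 (-2.59, adjusted p = 0.047) were lower and 0 were higher (median -0.71, but 0.12 with a minimum count of 50). This count lay near the 6.49% share of lower calls over all transcripts tested. Of 22 mitochondrial ribosomal proteins tested of 73 listed, none passed in either direction (median -0.62).

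Among the 12 most depleted transcripts by the naming rule, 5 encode neither a ribosomal protein nor a histone. They were HSP10 (the mitochondrial co-chaperonin), ATP7, MBF1 (a transcriptional coactivator), NCW1 (a cell wall protein) and SSO1 (a plasma membrane t-SNARE). HSP10 was at 55.7, 58.3, 0 and 0 CPM in the IP and at 418, 242, 163 and 324 CPM in the total ribosomes (log2 fold change -3.02, SE 0.75, adjusted p = 0.0017). NCW1 was at 147, 108, 131 and 0 CPM in the IP and at 751, 701, 474 and 1170 CPM in the total ribosomes (log2 fold change -2.67, SE 0.47, adjusted p = 1.45e-06). In all 12 the IP of NoCHX replicate 2 held 0 counts, and the limit of 3 counts in that library was 167 CPM. SOD1, the copper-zinc superoxide dismutase of the metal homeostasis list, was lower at 242, 237, 175 and 614 CPM in the IP and 868, 655, 1230 and 1290 CPM in the total ribosomes (log2 fold change -1.85, adjusted p = 0.00018). RPS30B among the 12 lost its call without the replicate block (adjusted p = 0.077).

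**Figure D2:**
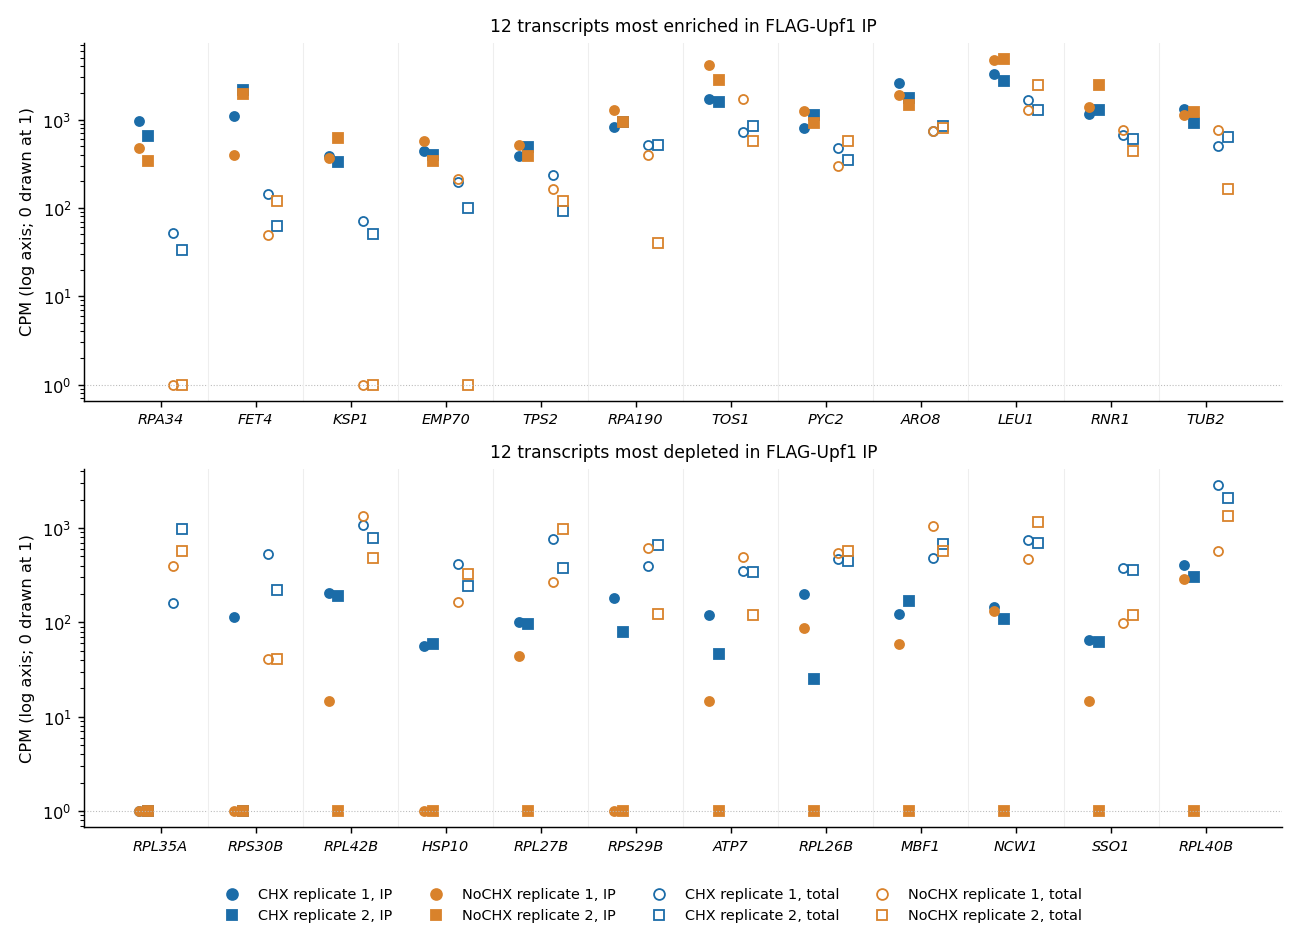
CPM (log axis, with 0 drawn at 1) in the IP (filled, left) and total ribosomes (open, right) of each FLAG-Upf1 lysate for the 12 transcripts with the highest and the 12 with the lowest fold change under the naming rule. RPA34, for example, lay between 335 and 966 CPM in the 4 IP libraries and between 0 and 52.2 CPM in the 4 total libraries, and RPL35A was at 0 in all 4 IP libraries.

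The higher transcripts fell into a few with large ratios and a longer tail near 2-fold. RPA34 (YJL148W; RefSeq R64 chrX:140437-141138), a subunit of RNA polymerase I, was at 966, 658, 482 and 335 CPM in the IP and at 52.2, 33.4, 0 and 0 CPM in the total ribosomes, with a log2 fold change of 4.54 (SE 0.61, adjusted p = 1.21e-10). FET4 (YMR319C; chrXIII:912880-914538), a low-affinity iron transporter of the plasma membrane, was at 1100, 2180, 394 and 1950 CPM in the IP and at 144, 62.6, 49.0 and 121 CPM in the total ribosomes, with a log2 fold change of 3.79 (SE 0.46, adjusted p = 2.26e-13). KSP1, a serine/threonine protein kinase, was at 390, 333, 365 and 614 CPM in the IP and at 71.8, 50.1, 0 and 0 CPM in the total ribosomes (log2 fold change 3.28, SE 0.66, adjusted p = 3.82e-05). In all 3 the lowest IP library exceeded the highest total library, although the zeros in the NoCHX totals lay under floors of 49.0 and 121 CPM.

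Another 7 of the 27 higher transcripts had log2 fold changes above 2 but had a mean under 20 counts or were not higher in every lysate. All but HXT4 are named after their values were seen. RNH203, a subunit of ribonuclease H2, was at 799, 600, 175 and 0 CPM in the IP and at 13.1, 16.7, 0 and 0 CPM in the total ribosomes (log2 fold change 5.47, adjusted p = 1.35e-08). STE20, a protein kinase of the mating pathway, was at 960, 641, 964 and 0 CPM in the IP and at 58.7, 121, 180 and 0 CPM in the total ribosomes (2.87, adjusted p = 4.86e-06). RTF1, a subunit of the Paf1 complex, was at 920, 620, 613 and 55.8 CPM in the IP and at 222, 75.1, 98.0 and 80.9 CPM in the total ribosomes (2.32, adjusted p = 0.00035). In these 3 the 3 deeper lysates showed the difference and NoCHX replicate 2 did not. The others were PMC1, the vacuolar calcium pump (3.14), HXT4, a glucose transporter (2.70), and the loci YAR075W (4.68) and YPR160W-A (3.02), which the names table does not pair with a symbol. RNA of these 2 loci averaged only 0.392 and 0.005 FPKM. Their footprint counts were mostly fractional, as when reads are divided between entries.

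The longer tail included enzymes of metabolism and membrane proteins. LEU1, isopropylmalate isomerase of leucine synthesis, was at 3280, 2760, 4760 and 4850 CPM in the IP and at 1680, 1280, 1270 and 2430 CPM in the total ribosomes, with a log2 fold change of 1.18 (SE 0.26, adjusted p = 0.00021). ARO8, an aromatic aminotransferase, was at 2560, 1760, 1880 and 1450 CPM in the IP and at 751, 843, 735 and 809 CPM in the total ribosomes (log2 fold change 1.23, SE 0.31, adjusted p = 0.0019). In both, every IP library exceeded every total library. Of 48 enzymes of amino acid synthesis tested, 3 were higher (LEU1, with GDH1 at 0.97 and GLT1 at 0.96, the enzymes that make glutamate) and 1, ILV5, was lower (-1.23, adjusted p = 0.00041), with a median of 0.27. Over all transcripts tested, 1.24% were higher and 6.49% lower. The remaining named members were RPA190, the largest subunit of RNA polymerase I (1.34, adjusted p = 0.012), PYC2, pyruvate carboxylase (1.26), RNR1, the large subunit of ribonucleotide reductase (1.16), TOS1, a cell wall protein (1.30), TPS2, trehalose-phosphate phosphatase (1.53), EMP70, an endosomal membrane protein (1.70), and TUB2, beta-tubulin (1.08). Without the replicate block EMP70, TPS2, RPA190 and TUB2 no longer passed (adjusted p = 0.074, 0.066, 0.053 and 0.094). RNR1 had a log2 fold change of 0.57 with 20 to 32 nt footprints in NoCHX (adjusted p = 0.14), against the 1.16 above.

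The most translated mRNAs of the cell shifted modestly. For the list counts that follow, the shares over all transcripts tested were 1.24% higher and 6.49% lower. TDH3, the main glyceraldehyde-3-phosphate dehydrogenase, was at 42000, 43000, 46500 and 44800 CPM in the IP and at 25900, 25200, 35200 and 24500 CPM in the total ribosomes (log2 fold change 0.62, SE 0.16, adjusted p = 0.0038). PDC1, pyruvate decarboxylase, had 0.51 (SE 0.17, adjusted p = 0.035). These were the 2 higher of 18 glycolytic transcripts, 0 were lower, and the median of the list was 0.13, or -0.01 without CHX replicate 2; the list as a whole took 17.8 ± 1.76% of IP counts and 14.6 ± 0.34% of total counts (SD, n = 4 each). PMA1, the plasma membrane proton pump, was at 13700, 13000, 14400 and 11400 CPM in the IP and at 7640, 8150, 7990 and 9470 CPM in the total ribosomes (log2 fold change 0.60, SE 0.20, adjusted p = 0.038). PMA1 and HXT4 were the 2 higher of 30 plasma membrane transporters, of which 26 had a positive fold change (0 lower, median 0.50). Of 29 cell wall and secreted proteins, TOS1 was higher and PIR1 (-1.40) and CCW14 (-1.08) were lower. ILS1, isoleucyl-tRNA synthetase, was the 1 higher member of 20 such enzymes (1.03, adjusted p = 0.019; 0 lower). None of 24 ergosterol enzymes, 30 proteasome subunits and 13 proteins of import into the endoplasmic reticulum passed in either direction, with medians of 0.30, 0.11 and 0.09. The last of these medians changed sign in 5 of 8 other settings, between -0.32 without CHX replicate 1 and 0.40 without CHX replicate 2.

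NMD substrates, the mRNAs on which Upf1 is best known to act, were too rare in these libraries to be judged as a group. Of 12 listed, 2 passed the count filter. CPA1, whose upstream reading frame makes it a substrate in certain conditions, had 64, 34, 6 and 5 counts in the IP and 33, 31, 13 and 3 counts in the total ribosomes, with a log2 fold change of -0.12 (SE 0.64, adjusted p = 0.96). ALR1, a magnesium transporter, had 31 counts in the IP and 34 in the total ribosomes over the 4 lysates (log2 fold change -0.55, SE 1.02, adjusted p = 0.84). The IP and total libraries of both overlapped. The others had at most 30 counts in the IP and at most 22 in the total ribosomes over all 4 lysates, reached by UBP7, and EST2 had 0 in both. In the model over 24 libraries 6 of the 12 were tested with FLAG-Upf1, and 0 were higher and 0 lower in edgeR's test (median 0.19). Of 13 Upf1 partners and decay factors tested, 0 passed in either direction (median 0.30, but -0.14 without CHX replicate 1 and -0.09 with a minimum count of 50). SUP35, the release factor eRF3, was at 517, 641, 599 and 55.8 CPM in the IP and at 516, 567, 474 and 283 CPM in the total ribosomes (-0.08, adjusted p = 0.96). SKI8, a subunit of the exosome cofactor Ski complex, had 1.86 (SE 0.77) with an adjusted p of 0.13. In the model over 24 libraries SKI8 passed with FLAG-Upf1 (1.66, SE 0.53, adjusted p = 0.0415). There it was the 1 higher member of 19 partners and decay factors tested, and 0 were lower. Of all transcripts in that model, 2.32% were higher and 4.8% lower with FLAG-Upf1. Of the 343 unspliced entries 2 could be tested and neither passed: unspliced RPL22A at -4.61 (adjusted p = 0.096) and unspliced ABP140 at -1.26.

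The fold change went with transcript length. Effective lengths, the number of positions that a footprint can take on a transcript, were derived from the deposited counts and FPKM (read number scaled by transcript length and depth) values. The mRNAs tested were divided by length into 4 bins of like size. In the shortest bin of 545 mRNAs (304 to 1043 nt) the median log2 fold change was -0.85, with 112 lower and 4 higher. It was -0.05 in the next bin, 0.18 in the one after and 0.22 in the longest (2312 to 14970 nt), where 2 were lower and 12 higher. Without ribosomal protein mRNAs the medians were -0.56, -0.04, 0.18 and 0.22, so the shortest bin stayed the lowest. The order of the shortest against the longest bin was the same in each of the 4 lysates among mRNAs with a mean of at least 20 counts: the median log2 ratio of IP over total was -0.18, -0.27, -0.41 and -0.45 in the shortest bin, and 0.29, 0.38, 0.34 and 0.27 in the longest. Across 2171 mRNAs the fold change and log2 effective length had a Pearson r of 0.37, and across 2035 without ribosomal proteins 0.28; the points share the same 8 libraries, and genes are not independent replicates.

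Length and abundance are tied to each other and to ribosomal protein genes. Among the shortest bin, restricted to the most abundant of 4 bins by RNA-seq, 74 of 128 ribosomal protein mRNAs were lower (median -1.50) and 26 of 144 other mRNAs were (median -0.87). Among the shortest but less abundant other mRNAs 12 of 272 were lower (median -0.48). Among longer other mRNAs of the most abundant bin 17 of 264 were lower and 10 higher (median 0.12), and among the longer, less abundant others 6 of 1355 were lower and 13 higher (median 0.12). Short mRNAs had negative medians at either abundance and longer ones positive medians. The part of length, abundance and function in the result was not tested.

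**Figure D3:**
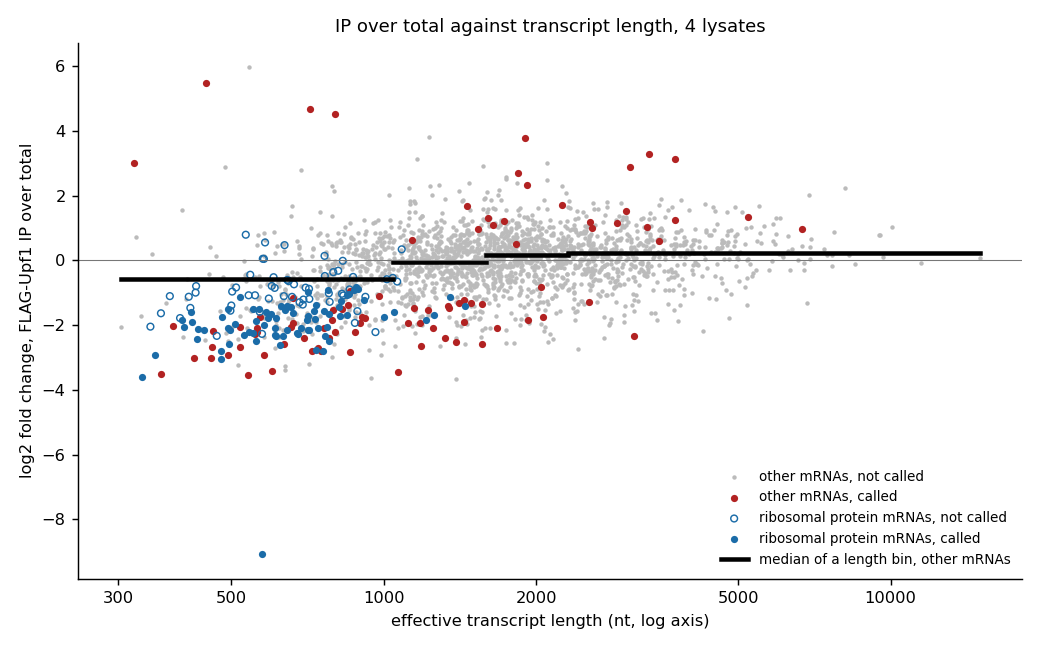
Log2 fold change of FLAG-Upf1 IP over total ribosomes (y axis) against effective transcript length (x axis, nt, log axis) for 2171 mRNAs, with ribosomal protein mRNAs in blue, other called mRNAs in red and the medians of the length bins without ribosomal proteins as bars (-0.56, -0.04, 0.18 and 0.22). Blue points crowd below 0 at the short end, and the 27 higher mRNAs, red points above 0, lie between 322 and 6679 nt.

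Both treatments showed the same direction. All 27 higher and all 141 lower transcripts had the same sign in the 2 CHX lysates and in the 2 NoCHX lysates, as a choice made on all 4 lysates favours. The median log2 fold changes were 1.40 in CHX and 1.55 in NoCHX for the higher, and -1.76 and -2.22 for the lower. Over all 2174 transcripts tested the medians were 0.09 in CHX and -0.28 in NoCHX, so the treatments did not share a baseline. Taken alone, CHX gave 59 calls of 2174 tested (2.71%; 8 higher, 0.368%, and 51 lower, 2.35%) and NoCHX gave 73 (3.36%; 10 higher, 0.46%, and 63 lower, 2.9%). The CHX count was 1 without either CHX replicate and 239 or 181 without NoCHX replicate 1 or 2, and 0 with a minimum count of 50. The NoCHX count was 4 without either CHX replicate, 264 or 35 without NoCHX replicate 1 or 2, and 0 with a minimum count of 50. The difference between treatments, tested as an interaction, passed for 0 transcripts in edgeR's test, with 92 at an unadjusted p under 0.05. DESeq2 called 0 as well, with 57 at an unadjusted p under 0.05. Without NoCHX replicate 1, which leaves a single NoCHX lysate, 150 passed.

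The transcripts nearest to a treatment difference are given as values only, all at an adjusted p of 0.16. ENA2, one of several near-identical sodium pumps, was at 117, 119, 453 and 186 CPM in the IP and at 0, 0, 327 and 278 CPM in the total ribosomes. YOR248W, a locus next to SRL1 by number, was at 1760, 984, 2770 and 4120 CPM in the IP and at 0, 0, 0.163 and 524 CPM in the total ribosomes. It was thus higher in the IP of all 4 lysates. Its overall log2 fold change of 5.97 (SE 1.44) did not pass in edgeR's test (adjusted p = 0.14). Within each treatment it passed in that test, at 10.5 in CHX (adjusted p = 1.2e-15) and 4.39 in NoCHX (adjusted p = 6.13e-07). Several of its expected counts were fractional. MTC7 took 51400 CPM of the IP of NoCHX replicate 2, against 24400 CPM of its total ribosomes, while in CHX it was at 3440 and 1970 CPM in the IP and at 4530 and 6320 CPM in the total ribosomes. YDR278C stood at 12500 CPM in the IP of NoCHX replicate 2 and at 388, 361 and 1240 CPM in the IP of the other lysates, against 1070, 947, 1820 and 3550 CPM in the total ribosomes. Both of these last values come from the shallowest library.

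**Figure D4:**
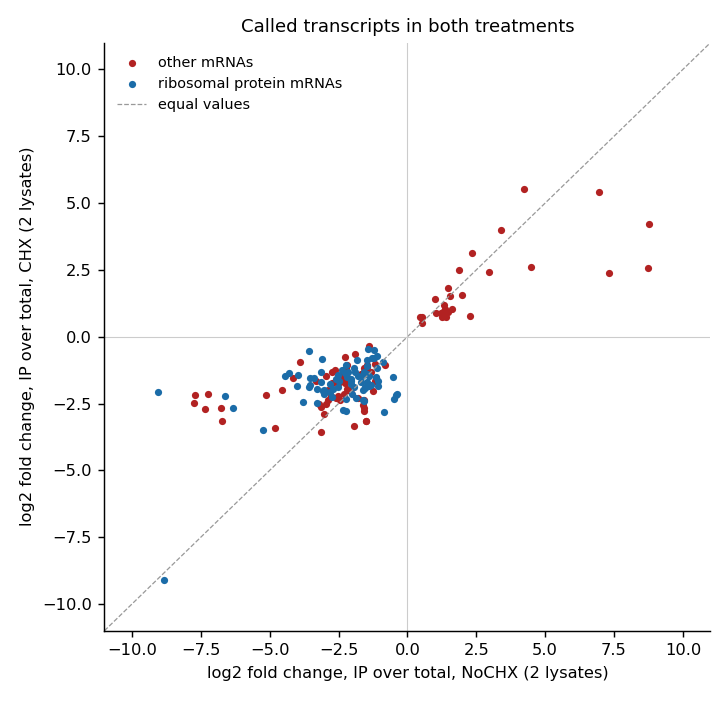
Log2 fold change of IP over total ribosomes in the 2 CHX lysates (y axis) against the 2 NoCHX lysates (x axis) for the 168 called transcripts, with ribosomal protein mRNAs in blue and others in red; the dashed line marks equal values. All points lie at the lower left or upper right, and 102 of the 141 lower transcripts had the larger size in NoCHX. The median of all 2174 transcripts tested was -0.28 in NoCHX and 0.09 in CHX.

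The same comparison was available for the other N-terminally tagged proteins, FLAG-Upf2 (nmd2::HIS3 with YEplac112-FLAG-UPF2) and FLAG-Upf3 (upf3::HIS3 with YEplac195-TPI-FLAG-UPF3), with 4 lysates each and no library in common. In a single model over 24 libraries and 4231 transcripts, FLAG-Upf1 gave 301 calls (7.11%; 2.32% higher, 4.8% lower), FLAG-Upf2 gave 1109 (26.2%; 8.98% higher, 17.2% lower) and FLAG-Upf3 gave 1101 (26%; 6.76% higher, 19.3% lower). The FLAG-Upf2 libraries held 129692 to 767020 counts and the FLAG-Upf3 libraries 56300 to 569846, so the numbers were not obtained at equal depth. Of the 27 transcripts higher with FLAG-Upf1, 25 were also called higher with FLAG-Upf2 and 19 with FLAG-Upf3, and of the 141 lower ones 135 and 133 were called lower. Conversely, these were 6.58% of the 380 transcripts higher with FLAG-Upf2 and 18.5% of its 729 lower ones, and 6.64% of the 286 higher and 16.3% of the 815 lower ones with FLAG-Upf3. Not all of those were tested in the 8 FLAG-Upf1 libraries. Among those tested, the shares were 7.33% of 341 higher and 28.2% of 478 lower ones with FLAG-Upf2. With FLAG-Upf3 they were 7.88% of 241 higher and 25% of 531 lower ones. FET4 had log2 fold changes of 4.21 with FLAG-Upf2 and 4.28 with FLAG-Upf3, and RPA34 had 3.83 and 2.29.

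The difference between tagged proteins was tested as an interaction. Between FLAG-Upf1 and FLAG-Upf2 14 of 4231 transcripts differed (0.331%), all with the higher value in FLAG-Upf1, and between FLAG-Upf1 and FLAG-Upf3 102 differed (2.41%), 97 higher (2.29%) and 5 lower (0.118%). These were mostly transcripts depleted less by FLAG-Upf1: the 14 had a median of -1.03 with FLAG-Upf1 and -3.19 with FLAG-Upf2, where all 14 were negative, and the 97 had a median of -1.08 with FLAG-Upf1 and -3.80 with FLAG-Upf3, where 94 were negative. Ribosomal protein mRNAs were 6 of the 14 and 41 of the 97. The median difference over 138 ribosomal protein mRNAs was 0.85 against FLAG-Upf2 and 1.33 against FLAG-Upf3, where the medians of all transcripts were 0.09 and 0.31. With RLE size factors the medians of all transcripts were 0.24 and 0.27. Ribosomal protein mRNAs took 7.0 ± 1.07% of FLAG-Upf1 IP counts, 5.6 ± 0.40% of FLAG-Upf2 IP counts and 5.94 ± 0.21% of FLAG-Upf3 IP counts, against 14.7 ± 1.44%, 16.7 ± 1.34% and 17.2 ± 1.12% of the total counts (SD, n = 4 each). The number that differed from FLAG-Upf2 was sensitive to the method, at 35 with RLE size factors, 41 with no count filter, 24 without the replicate block, 74 with DESeq2 (63 higher, 11 lower), 37 without CHX replicate 2 and 27 without NoCHX replicate 2. That against FLAG-Upf3 was 179 with DESeq2 (152 higher, 27 lower), 58 without CHX replicate 1 and 159 without NoCHX replicate 2.

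Single transcripts with the largest tested differences were of the same kinds. In the model over 24 libraries EGD2, the partner of EGD1 in the nascent polypeptide-associated complex, had log2 fold changes of -0.90 with FLAG-Upf1 and -3.54 with FLAG-Upf2 (difference 2.64, SE 0.54, adjusted p = 0.0051). HHT2, histone H3, had -1.09 with FLAG-Upf1 and -3.30 with FLAG-Upf2 (difference 2.21, SE 0.44, adjusted p = 0.0051). RPL26A had -1.41 with FLAG-Upf1 and -3.89 with FLAG-Upf2 (difference 2.48), and RPL1A -0.37 and -2.59 (difference 2.22). Against FLAG-Upf3 the largest were RPL37A (difference 4.76, adjusted p = 4.4e-05), RPS30A (4.14), SCD6, a translational repressor (3.80), and HHT1, the other gene of histone H3 (3.50). RPL26A, RPL1A, RPL37A, RPS30A, HHT1 and HHT2 had fractional expected counts, so their reads may have been divided unevenly between copies. RPL37A was at 0 CPM in the IP of NoCHX replicate 2 of FLAG-Upf1, where the summed RPL37 pair was at 391 CPM. Summed copies were not tested between tagged proteins. The opposite direction, lower with FLAG-Upf1 than with FLAG-Upf3, was shown by KIP2, a kinesin (difference -3.35, adjusted p = 0.031), KRE33, an RNA acetyltransferase (-1.52, adjusted p = 0.017), SRL1, a cell wall protein (-1.25, adjusted p = 0.020), CDC19, pyruvate kinase (-0.64, adjusted p = 0.022), and MUB1.

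Upf1 tagged at its C-terminus (Upf1-FLAG, upf1::HIS3 with pRS425-UPF1-FLAG, 3 lysates with cycloheximide) was sequenced after rRNA removal with QIAseq FastSelect, so the position of the tag and the kit cannot be told apart and the values are set side by side without a test. Its 6 libraries held 275418 to 3020880 counts, and 1971 transcripts were called (39.1% of those tested; 900 higher, 17.9%, and 1071 lower, 21.3%). Of the FLAG-Upf1 calls, 20 of 27 higher ones were also higher with Upf1-FLAG, 2 were called lower there (TIF2 and TPS2), and 132 of 141 lower ones were also lower. They were 2.22% of the 900 and 12.3% of the 1071. Among those tested in the 8 FLAG-Upf1 libraries, they were 3.06% of 654 higher and 22.5% of 586 lower ones. Ribosomal protein mRNAs took 10 ± 0.88% of IP counts and 20.2 ± 1.02% of total counts (SD, n = 3 each). The ratio of total over IP shares was 2.10 with FLAG-Upf1 and 2.02 with Upf1-FLAG. Among the leading transcripts FET4 had a log2 fold change of 7.11 with Upf1-FLAG, RNH203 of 6.50, STE20 of 4.55, RTF1 of 3.94, RPA34 of 3.63 and KSP1 of 3.51. EMP70 (0.01, adjusted p = 0.97), TOS1 (-0.14, adjusted p = 0.28) and TUB2 (0.22, adjusted p = 0.11) did not pass there. In the deeper C-terminal libraries 11 NMD substrates could be tested: CPA1 (0.43, adjusted p = 0.0087) and PPR1 (1.12, SE 0.31, adjusted p = 0.012) were higher, TEN1 was lower (-3.03, SE 1.00, adjusted p = 0.031) and 8 did not pass. Across FLAG-Upf2, FLAG-Upf3 and Upf1-FLAG, 18 of the 27 higher transcripts were called higher in all 3 and 124 of the 141 lower ones were called lower in all 3.

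**Figure D5:**
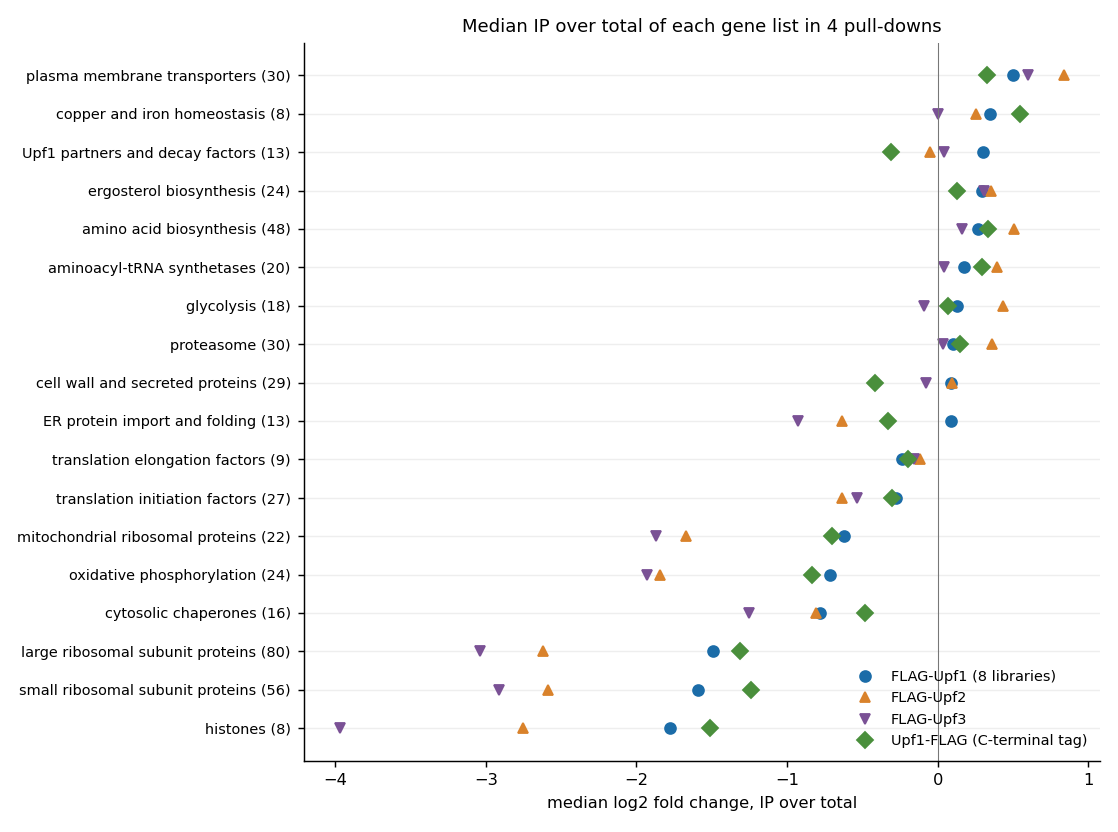
Median log2 fold change of IP over total ribosomes (x axis) of each gene list with at least 8 tested members in the FLAG-Upf1 comparison (number of members tested there in parentheses), for FLAG-Upf1, FLAG-Upf2, FLAG-Upf3 and C-terminal Upf1-FLAG. Ribosomal protein and histone lists lie lowest with each tagged protein. The large and small ribosomal subunits had medians of -1.49 and -1.59 with FLAG-Upf1, -2.62 and -2.59 with FLAG-Upf2, -3.04 and -2.91 with FLAG-Upf3 and -1.31 and -1.24 with Upf1-FLAG.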

How the data were processed

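The authors deposited, per sample, expected counts and FPKM values of transcripts, spliced and unspliced forms listed apart (6952 entries). Per the submitters' processing notes they used cutadapt, Bowtie and RSEM with builds R64 and sacCer3; versions and parameters are not given in the sources used here. Only the 27 to 32 nt expected counts, as the authors deposited them, were tested, rounded to whole numbers. Deposited FPKM values served, with the counts, to derive effective transcript lengths, in place of the RefSeq protein lengths first planned. Symbols came from RefSeq R64, which matched 5966 of 6656 loci. Libraries were grouped by label. Per the labels' protocols the immunopurified ribosomes were taken from the ribosomes of the same lysate, so lysate number entered as a block; after removing group means, same-numbered IP and total libraries had r of 0.011 in CHX and 0.078 in NoCHX.

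edgeR 4.0.16 (R 4.3.3) was used with TMM scaling, a count filter of at least 10 (filterByExpr), robust quasi-likelihood F tests, and Benjamini-Hochberg adjustment over all transcripts tested; adjusted p under 0.05 is called, every adjusted p is from this test unless DESeq2 is named, and SE was taken as the size of the log2 fold change over the root of the F statistic. The fit on simulated counts was tested beforehand. The labels do not say that replicates came from separate cultures beyond their numbers, so p-values measure the spread between these samples. In the labels, the CHX and NoCHX lysates of a replicate carry the same number. Intervals and floors (3 counts) cover counting error only, since PCR reads are not independent molecules.

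Alternatives were RLE size factors, no count filter, a minimum of 50 counts, DESeq2 1.42.0, no replicate block, all N-terminal lysates in 1 model, and leaving out each replicate; 20 to 32 nt footprints in NoCHX and summed paralogs were added after seeing the data. The members and the 20 gene lists were chosen with earlier results of these data known. Named are the 12 highest and 12 lowest log2 fold changes among called transcripts with the same sign in all 4 lysates and a mean of at least 20 counts, and for each list the 2 most abundant members and the 2 with the smallest p; where a list had 5 or fewer called members all are named, chosen after their values were seen.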

Additional observations from a re-analysis of the deposited data

Results flagged for a closer look

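Single lysates stood apart from the other 3 in the log2 ratio of IP over total in 5 of 43 groups of 4 checked by Dixon's test, where chance flags about 1 in 20. NoCHX replicate 2 was low for the summed share of mitochondrial ribosomal proteins (-1.55) and nearest to 0 for oxidative phosphorylation (-0.0522). NoCHX replicate 1 was high for amino acid biosynthesis (0.537), for RPA34 (5.9, with 0.5 counts added to each library) and for LEU1 (1.89, likewise).

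The IP over total ratio differed between tagged proteins in the interaction test for 14 transcripts between FLAG-Upf1 and FLAG-Upf2 and for 102 between FLAG-Upf1 and FLAG-Upf3. The log2 differences of FLAG-Upf1 minus FLAG-Upf2 were 2.64 for EGD2, 2.48 for RPL26A, 2.22 for RPL1A and 2.21 for HHT2. Those of FLAG-Upf1 minus FLAG-Upf3 were 4.76 for RPL37A, 4.14 for RPS30A, 3.80 for SCD6, 3.50 for HHT1, -3.35 for KIP2, -1.52 for KRE33, -1.25 for SRL1 and -0.64 for CDC19. Reads of the ribosomal protein and histone entries among these may have been divided unevenly between copies, and summed copies were not tested here.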

How the results depend on the processing

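The count of 168 transcripts called (27 higher, 141 lower) was 106 (85 lower) with a minimum count of 50, and 271 (62 higher) with 20 to 32 nt footprints in NoCHX. No count filter gave 90 lower, all N-terminal lysates in 1 model gave 63 higher, and without the replicate block 125 were called, 16 of them higher. Leaving out 1 lysate gave 26 to 201 called, 3 to 44 higher and 23 to 157 lower. The CHX count of 59 was 28 with no filter, 0 with a minimum of 50, 38 with DESeq2, 28 without the replicate block and 1 to 239 leaving out 1 lysate. The NoCHX count of 73 was 28 with no filter, 0 with a minimum of 50, 42 with DESeq2 and 4 to 264 leaving out 1 lysate. Both counts of 0 came from edgeR's test, with 111 and 127 at an unadjusted p under 0.05. The treatment difference passed for 1 transcript with RLE size factors and for 0 to 150 leaving out 1 lysate. The 14 that differed from FLAG-Upf2 were 35 with RLE size factors, 41 with no filter, 74 with DESeq2, 24 without the replicate block and 11 to 37 leaving out 1 lysate, and the 102 that differed from FLAG-Upf3 were 179 with DESeq2 and 58 to 159. The median of small-subunit ribosomal proteins was -1.64 to -1.31 leaving out 1 lysate. The cause of these shifts was not tested. Of 271 alternative values of the 24 transcripts named for the highest and lowest fold changes, 217 stayed on their side of the threshold, 54 no longer passed and none changed sign. The 24 were chosen as called with the same sign in all 4 lysates, which favours an unchanged sign. Of 156 list medians, 11 changed sign. Depth limits the NoCHX lysates most.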
